A study of Mus musculus with 6 samples.

Results

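The genes described here are nuclear genes of the mitochondrial respiratory chain and ATP synthase, 78 of the 12579 genes measured. They were chosen by gene symbol, with earlier results of these data known. The symbol families were Nduf (complex I), Sdh (complex II, limited to Sdha, Sdhc and Sdhd), Uqcr (complex III), Cox4 to Cox8 (complex IV) and Atp5 (complex V). The choice gave 35 genes of complex I, 3 of complex II, 8 of complex III, 15 of complex IV and 17 of complex V. Subunits with other symbols are not included, so a sum over a complex covers only the genes chosen. A symbol is a looser guide than a structure in a few cases. Ndufa4 was counted with complex I by its name, although its product is now placed with complex IV. Atp5s encodes coupling factor B, Atp5sl is known in humans for the assembly of complex I, and Cox7a2l encodes a factor that joins complexes III and IV into supercomplexes.

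The respiratory chain sits in the inner mitochondrial membrane. Complex I (NADH dehydrogenase) and complex II (succinate dehydrogenase) pass electrons to ubiquinone, complex III passes them to cytochrome c, and complex IV passes them to oxygen. Complexes I, III and IV pump protons, and complex V, the ATP synthase, uses the returning protons to make ATP. Fetal liver is the main site of blood formation in the mid-gestation embryo, and blood progenitors lean more on this chain as they leave the quiescent stem cell state.

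RNA was sequenced from mouse fetal liver cells at E14.5 (embryonic stage), labelled as haematopoietic stem and progenitor cells, in 3 Prl2+/+ and 3 Prl2-/- samples. Prl2 encodes a small protein tyrosine phosphatase and is listed as Ptp4a2, and the series asks how its loss alters transcription that depends on the receptor FLT3. No treatment is recorded for either genotype; the labels do not give the strain, the way the allele was made or a sorting gate. Whether the libraries of a genotype are separate embryos is not stated, and the p-values therefore describe the spread among the libraries, technical spread included.

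Libraries held 25965111 to 37026282 counts, of which the 78 genes took 1.60%, 1.62% and 1.56% in Prl2+/+ and 1.73%, 1.67% and 1.62% in Prl2-/- (here and below, values follow the order of replicates 1 to 3). Ptp4a2 had 8088, 9906 and 8135 counts in Prl2+/+ and 44, 38 and 38 in Prl2-/-, so the libraries matched their labels. All 10 stem and progenitor markers were measured, with a summed level of 1257 to 1491 CPM (gene counts divided by the scaled total of their library and put on a common base) in Prl2+/+ and 1447 to 1710 CPM in Prl2-/-. Markers of other cells were present too: the 14 hepatoblast markers summed to 4428, 892 and 162 CPM in Prl2+/+ and 75.9, 2561 and 335 CPM in Prl2-/-. Prl2+/+ replicate 1 and Prl2-/- replicate 2 were thus the libraries richest in hepatoblast RNA. B lineage markers summed to 110, 130 and 335 CPM against 420, 72.5 and 193 CPM, highest in Prl2-/- replicate 1 and Prl2+/+ replicate 3. In bulk RNA, fewer cells of a type and less RNA per cell cannot be told apart.

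Nuclear respiratory chain genes are scattered over 19 chromosomes and are known to share promoter elements for the regulators NRF1 (nuclear respiratory factor 1) and GABP, so the sequence before their start sites was read. RefSeq promoter sequence (build GRCm38.p6, 250 bases before to 50 after the start) was matched for 65 of the 78 genes. For 6 of these the table gives more than 1 start, and a gene was counted if any of its starts had a match. The NRF1 letters GCGCANGCG, on either strand, were in the promoters of 19 of the 65 (29.231%), against 14.967% of 9588 other measured genes and 7.034% of all 27025 genes in the promoter table. The GABP letters CCGGAAG were in 23.077% against 20.035% of the other measured genes, and the YY1 letters AAGATGGCG were in 12.308% against 3.588%. Letters for SP1, GGGCGG, were less common than in other measured genes (40.000% against 68.398%), while the median GC content was 58.33% against 62.00%. The GABP and YY1 letters can share bases, since CCGGAAG ends and AAGATGGCG begins with the same 3 letters. The shares carry no test, and a match describes letters and not binding. NRF1 or GABP letters were found for 28 of the 65 genes (43.077%), against 31.456% of the other measured genes, and the rest had neither. The 4 promoters below were picked from those with a match. Sdha has the NRF1 letters 3 times, and Sdhd and Cox6a1 hold NRF1 and GABP letters together. Atp5j shares its locus with Gabpa, the gene of the DNA-binding subunit of GABP, on the opposite strand. Atp5j has another start in the promoter table, at the 5′ end of the gene as deposited, whose promoter holds neither NRF1 nor GABP letters. The promoter printed belongs to a start inside the gene, downstream of that end. Each is given 5′ to 3′ on the strand of the gene, as the 120 bases before its start, with NRF1 and GABP letters on either strand in capitals.
Sdha, chr13:74350241-74350360, minus strand: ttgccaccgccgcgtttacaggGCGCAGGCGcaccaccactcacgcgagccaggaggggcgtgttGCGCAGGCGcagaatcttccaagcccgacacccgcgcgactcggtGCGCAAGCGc
Sdhd, chr9:50603850-50603969, minus strand: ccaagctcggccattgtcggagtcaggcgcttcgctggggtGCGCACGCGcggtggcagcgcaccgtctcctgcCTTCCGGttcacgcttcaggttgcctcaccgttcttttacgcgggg
Cox6a1, chr5:115348959-115349078, minus strand: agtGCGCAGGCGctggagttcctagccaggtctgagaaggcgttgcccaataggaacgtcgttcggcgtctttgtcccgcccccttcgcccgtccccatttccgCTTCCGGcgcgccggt
Atp5j, chr16:84834977-84835096, minus strand: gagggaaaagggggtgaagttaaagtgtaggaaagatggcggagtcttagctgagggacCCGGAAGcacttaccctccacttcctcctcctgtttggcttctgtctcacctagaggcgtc
The spacing differs between them: the NRF1 letters of Sdha recur along the whole stretch, while Cox6a1 has NRF1 letters at its far end and GABP letters next to the start. Of the 65 promoters, 6 held both NRF1 and GABP letters (9.231%), against 3.546% of the other measured genes.

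Messages of the respiratory chain were abundant. Per kilobase of exon, which allows levels of different genes to be compared, the median gene stood at the 95.67th percentile of all genes tested, and 61 of the 78 were at or above the 90th percentile. Part of that rank goes with length, since shorter genes had higher values by this measure among all genes. The medians of all genes were 59.7 CPM per kb under 600 bases of exon, 29.5 from 600 to under 1200 and 8.71 at 1200 and over. Those of the respiratory chain genes were 188, 163 and 133 in the same classes. Without division by length, their median was 119 CPM against 29.6 CPM for all genes. Atp5b, the catalytic beta subunit of ATP synthase, had the highest level of the 78, at 1365 ± 28.8 CPM per kb in Prl2+/+ and 1388 ± 27.6 in Prl2-/- (SD, n = 3 each). Only 6 genes were under 10 CPM per kb: the isoform genes Cox4i2, Cox6a2, Cox6b2 and Cox7a1, and the factors Atp5s and Atp5sl. The lengths are of all annotated exons merged, which lowers the per kb level of a gene with long, little used exons; Ndufa11, the lowest of complex I at 32.8 CPM per kb, has 2661 bases of merged exon for 429 bases of coding sequence.

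**Figure D1:**
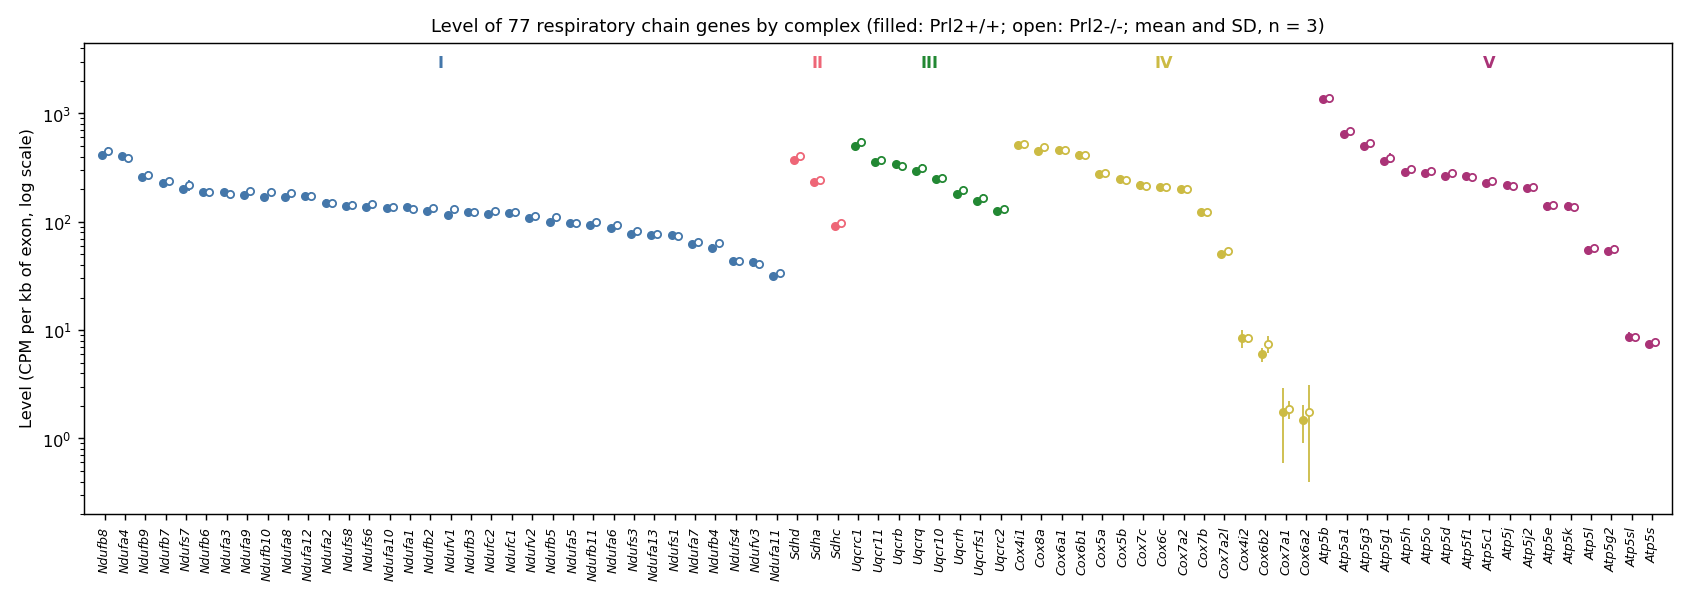
Level of 77 of the 78 genes in CPM per kb of exon (log scale), grouped by complex, as mean and SD of 3 libraries (filled, Prl2+/+; open, Prl2-/-). Atp5b stands above the rest at 1365 and 1388 CPM per kb, and 6 genes lie under 10 CPM per kb.

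The comparison of Prl2-/- with Prl2+/+ found no respiratory chain gene past the threshold. Of 78 genes, 0 had an adjusted p under 0.05 in edgeR's quasi-likelihood test, where 5 of 12576 genes did (0.0398%). In DESeq2, 0 of the 78 passed, where 36 of 12572 genes did (0.286%), and 0 passed in limma-voom and in edgeR's likelihood ratio test. Without adjustment, the p was under 0.05 for 2 of the 78 in the quasi-likelihood test (Ndufv1 and Ndufb10), where it was for 578 of all 12576 genes, a larger share. It was under 0.05 for 4 of the 78 in DESeq2, 1 in limma-voom and 0 in the likelihood ratio test. The counts over all genes are not given here for those tests, so these counts cannot be set against a background. The adjusted p of the 78 ran from 0.8985 to 0.9995 (edgeR).

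The estimates were small and leaned upward. Of the 78 log2 fold changes (Prl2-/- minus Prl2+/+), 59 were above 0 and 19 below, which is 75.64% above 0 where 49.79% of all genes tested were. Their median was 0.057, with a range from -0.086 to 0.33, beside a median of -0.0007 over all genes. All 3 Prl2-/- libraries stood above all 3 Prl2+/+ libraries for 15 of the 78 genes, where 6.03% of all genes did so, and the reverse held for 0 of the 78, where it held for 5.07%. No test was made of the list, and the genes were chosen with earlier results of these data known. The lean rested in part on single libraries: the median was 0.025 without Prl2-/- replicate 1 and 0.036 without Prl2+/+ replicate 3, each with 52 of 78 estimates above 0, and 0.074 with 66 above 0 without the 2 hepatoblast-rich libraries.

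The interval of each estimate shows what these libraries could have missed. For 75 of the 78 genes the 95% confidence interval lay within a 1.5-fold difference in either direction; Cox6a2, Cox6b2 and Cox7a1, all of low level, were the exceptions. The median width of the interval was 0.33 on the log2 scale for the 78 and 0.56 for all genes. The biological coefficient of variation, edgeR's measure of the spread between libraries of a genotype, had a median of 0.090 for the 78 and 0.14 for all genes.

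**Figure D2:**
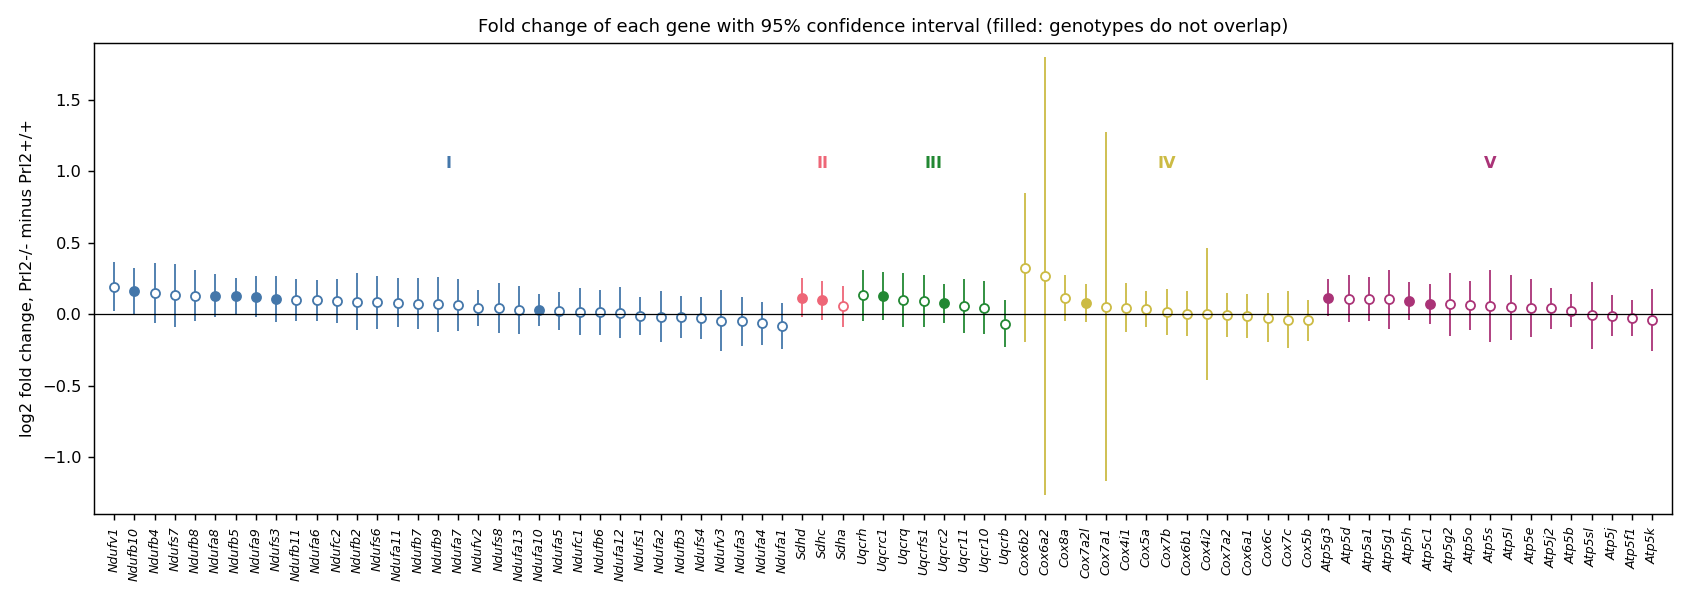
Log2 fold change (Prl2-/- minus Prl2+/+) of 77 of the 78 genes with its 95% confidence interval, grouped by complex; filled points are the 14 genes drawn whose genotypes do not overlap. Most points lie just above 0, and the intervals of Cox6a2 and Cox7a1 are the widest.

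Summed over the 78 genes, the level was 15922, 16357 and 15687 CPM in Prl2+/+ and 17317, 16533 and 16188 CPM in Prl2-/-. Prl2-/- replicate 1 was the highest library, and Prl2+/+ replicate 2 lay above Prl2-/- replicate 3, so the genotypes overlapped. The means were 15989 ± 340 and 16679 ± 578 CPM (SD, n = 3 each), a difference of 4.32%. By complex the difference in the summed level was 4.72% for complex I, 5.88% for complex II, 6.38% for complex III, 1.64% for complex IV and 3.97% for complex V. Prl2-/- replicate 1 was the highest library for 43 of the 78 genes and Prl2+/+ replicate 3 the lowest for 38. Such counts over all genes are not given here, so these cannot be set against a background. Megakaryocyte markers (6 of 6 measured) summed to 327, 219 and 204 CPM in Prl2+/+ and 369, 304 and 249 CPM in Prl2-/-. Macrophage markers (8 of 8 measured) summed to 351, 374 and 294 CPM against 361, 312 and 323 CPM. Both of these sums were lowest in Prl2+/+ replicate 3. Markers of granulocyte precursors (5 of 5 measured) summed to 12290, 13490 and 15930 CPM in Prl2+/+ and 17500, 14630 and 16810 CPM in Prl2-/-. Stem and progenitor markers summed to 1257, 1439 and 1491 CPM against 1710, 1447 and 1511 CPM. The granulocyte precursor sum and the stem and progenitor sum were both highest in Prl2-/- replicate 1. Among Prl2+/+ libraries, both were highest in replicate 3. Erythroid markers (9 of 9 measured) summed to 783, 1073 and 561 CPM against 538, 1399 and 650 CPM, lowest in Prl2-/- replicate 1. B lineage sums, given above, were highest in Prl2-/- replicate 1 and Prl2+/+ replicate 3. The part of these cells in the result was not tested.

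**Figure D3:**
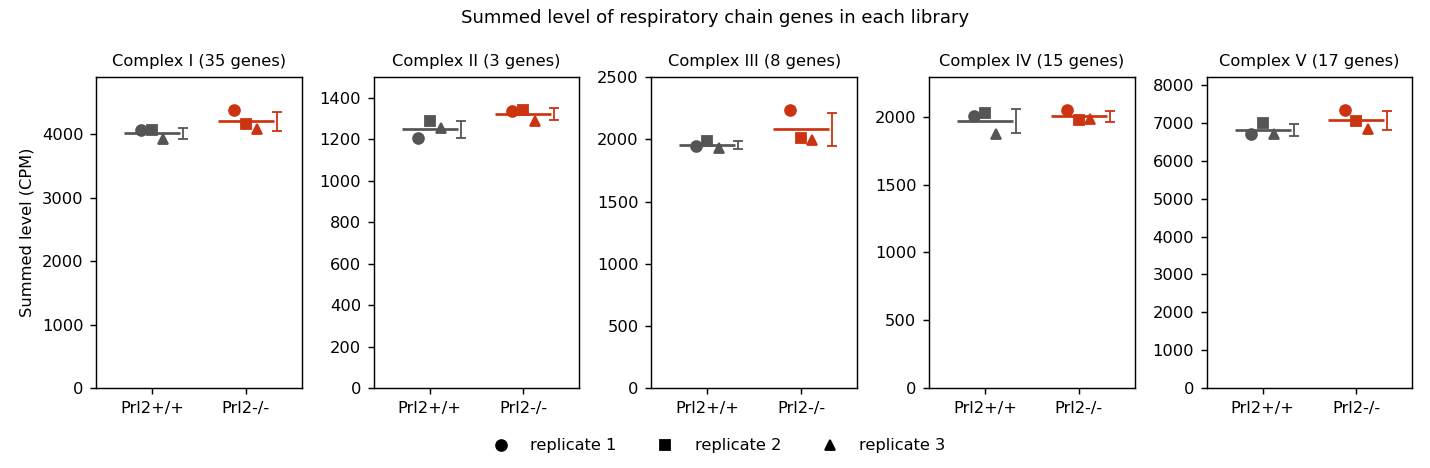
Summed level (CPM) of the genes of each complex in each library, by genotype; each point is 1 library, with its replicate number as the marker. Prl2-/- replicate 1 is the highest library for complexes I, III, IV and V, and Prl2+/+ replicate 3 the lowest for complexes I, III and IV.

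In complex I, the largest complex, 27 of 35 estimates lay above 0, with a median of 0.070 and 0 genes past the threshold. In 7 of the 35 the Prl2-/- libraries stood above all Prl2+/+ libraries, among them Ndufb10, Ndufa8, Ndufb5, Ndufa9, Ndufs3 and Ndufa10. Of all genes tested, 6.03% did so. Summed over the complex, the level was 4061, 4067 and 3919 CPM in Prl2+/+ and 4373, 4153 and 4089 CPM in Prl2-/-. The sums did not overlap, although Prl2-/- replicate 3 was close to the highest Prl2+/+ library. The median was 0.030 without Prl2-/- replicate 1 and 0.036 without Prl2+/+ replicate 3.

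The 7 nuclear-encoded core subunits of complex I, which carry its flavin and iron-sulfur clusters and the adjoining catalytic fold, had 6 estimates above 0 and a median of 0.11. Ndufv1 (chr19:4007499-4012755, minus strand) encodes the subunit that binds NADH and the flavin. It had 180, 198 and 179 CPM in Prl2+/+ and 224, 215 and 198 CPM in Prl2-/-. Prl2-/- replicate 3 lay just below Prl2+/+ replicate 2, and the other Prl2-/- libraries lay above every Prl2+/+ library. The log2 fold change was 0.19 ± 0.071 (SE; 95% interval 0.022 to 0.36; edgeR adjusted p = 0.8985). Ndufs3, another core subunit of the peripheral arm, had 73.0, 73.1 and 70.2 CPM against 83.7, 75.2 and 74.2 CPM. Its genotypes did not overlap, and the log2 fold change was 0.11 ± 0.068 (edgeR adjusted p = 0.8985). Ndufs1, which holds iron-sulfur clusters of the peripheral arm, was the core gene below 0, at -0.012 ± 0.055; its exons share 248 bases with Ino80dos on the opposite strand.

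The other 28 genes of the complex I family had 21 estimates above 0 and a median of 0.067. They encode accessory subunits around that core, apart from Ndufa4 (-0.062 ± 0.063), which is counted here by its name. Ndufb10 (chr17:24722067-24724388, minus strand), a subunit of the membrane arm, had 106, 110 and 107 CPM in Prl2+/+ and 127, 123 and 111 CPM in Prl2-/-. All 3 Prl2-/- libraries were higher, replicate 3 by little, and the log2 fold change was 0.16 ± 0.067 (95% interval 0.0026 to 0.32; edgeR adjusted p = 0.8985). Ndufb5, also of the membrane arm, had 99.2, 102 and 100 CPM against 112, 106 and 110 CPM, with a log2 fold change of 0.13 ± 0.053. Ndufa8 and Ndufa9, accessory subunits too, had log2 fold changes of 0.13 ± 0.063 and 0.12 ± 0.060, and neither overlapped between genotypes. Ndufb8 had the highest level per kb in the complex (434 CPM per kb over all libraries) and Ndufa11 the lowest, a ratio of 13.2. Ndufb8 had 281, 257 and 259 CPM against 317, 276 and 279 CPM, where Prl2+/+ replicate 1 lay above Prl2-/- replicates 2 and 3, and its log2 fold change was 0.13 ± 0.074. At the low end, Ndufa1, an accessory subunit encoded on chromosome X, had 69.6, 68.2 and 66.5 CPM against 61.3, 62.0 and 69.1 CPM. Its log2 fold change of -0.086 ± 0.067 was the lowest of the 78, with Prl2-/- replicate 3 inside the Prl2+/+ range; Ndufa1 is named for that value.

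Complex II is the succinate dehydrogenase that also serves the tricarboxylic acid cycle, and the 3 genes chosen by the symbol rule, which are not the whole complex, all had estimates above 0, with a median of 0.097. Their sum was 1204, 1288 and 1253 CPM in Prl2+/+ and 1339, 1339 and 1288 CPM in Prl2-/-, where Prl2-/- replicate 3 and Prl2+/+ replicate 2 were level to within 1 CPM. Sdhd (chr9:50596340-50603849, minus strand), a membrane anchor, had 483, 484 and 466 CPM in Prl2+/+ and 542, 524 and 486 CPM in Prl2-/-. Every Prl2-/- library was higher, replicate 3 by the least, and the log2 fold change was 0.12 ± 0.058 (edgeR adjusted p = 0.8985). Sdhc, the other anchor, had 105, 112 and 104 CPM against 113, 117 and 113 CPM, also without overlap, and a log2 fold change of 0.097 ± 0.058. Sdha, the flavoprotein that oxidises succinate, had 616, 691 and 683 CPM against 683, 698 and 688 CPM. Prl2+/+ replicate 1 alone was low and the other libraries were close together; the log2 fold change was 0.056 ± 0.060, and -0.0023 without the 2 hepatoblast-rich libraries. Per kb, Sdhd stood at 387 CPM, Sdha at 237 and Sdhc at 94.1, with no overlap in library spread between neighbours in that order.

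Complex III is the cytochrome bc1 complex. Its estimates lay above 0 in 7 of 8 genes, with a median of 0.084 and 2 genes without overlap between genotypes. Both were higher in Prl2-/-, as were 6.03% of all genes tested. The sum over the complex was 1949, 1989 and 1930 CPM against 2233, 2012 and 1996 CPM, high in Prl2-/- replicate 1 and close together elsewhere. Uqcrc1, a core protein of the matrix side, was its most abundant message per kb (526 CPM per kb). It had 815, 861 and 825 CPM in Prl2+/+ and 996, 867 and 867 CPM in Prl2-/-. Prl2-/- replicate 1 stood apart and the other 2 lay just above Prl2+/+ replicate 2; the log2 fold change was 0.13 ± 0.071 (edgeR adjusted p = 0.8985). Uqcrc2, the partner core protein, had the lowest level per kb of the complex (129 CPM per kb), with 234.94, 237.24 and 236.52 CPM against 265.34, 244.47 and 237.31 CPM. Its genotypes were apart by less than 0.1 CPM at their nearest, and the log2 fold change was 0.076 ± 0.057. Uqcrb, a small subunit near the ubiquinone site, was the only one of the 8 below 0, at -0.066 ± 0.069. Without Prl2-/- replicate 1 the median of the complex was 0.031.

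Complex IV is cytochrome c oxidase. In 9 of its 15 genes the estimate lay above 0, and the median was 0.013, the lowest of the 5 complexes. The median was 0.0047 without Prl2-/- replicate 1 and -0.025 without Prl2+/+ replicate 3, so its direction was not stable. Summed, the complex had 2008, 2031 and 1871 CPM in Prl2+/+ and 2046, 1975 and 1985 CPM in Prl2-/-, with overlap and with Prl2+/+ replicate 3 the lowest library. Cox8a, a small membrane subunit, had the smallest p of the complex, with 235, 257 and 242 CPM in Prl2+/+ and 285, 253 and 256 CPM in Prl2-/-. Only Prl2-/- replicate 1 stood above the Prl2+/+ range, and the log2 fold change was 0.11 ± 0.067 (edgeR adjusted p = 0.8985). Cox7a2l had 58.5, 56.1 and 60.2 CPM against 62.7, 60.3 and 61.6 CPM. It was the only one of the 15 without overlap, a share near the 6.03% of all genes that stood higher in Prl2-/- without overlap. The log2 fold change of Cox7a2l was 0.079 ± 0.056. Cox4i1, the main form of the subunit that starts assembly of the complex, had 401, 407 and 357 CPM against 423, 396 and 383 CPM. Its low value in Prl2+/+ replicate 3 set its direction: the log2 fold change was 0.046 ± 0.071, and between -0.011 (without that library) and 0.078 when each library was left out in turn. Cox5a and Cox5b, which bind on the matrix side, had log2 fold changes of 0.037 ± 0.052 and -0.042 ± 0.060. Cox6c and Cox7c, small membrane subunits, had -0.024 ± 0.073 and -0.039 ± 0.084, so these 4 estimates lay on both sides of 0 and within their standard errors of it.

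Several complex IV subunits come in isoforms, and the minor forms are known from other tissues. Cox6a2 and Cox7a1 are the heart and muscle forms, Cox6b2 is the testis form and Cox4i2 is known from lung and from oxygen-poor conditions. Per kb, Cox4i2 made up 1.63% ± 0.297 of the Cox4i pair in Prl2+/+ and 1.58% ± 0.133 in Prl2-/- (SD, n = 3 each). Cox6a2 made up 0.325% ± 0.136 of its pair against 0.382% ± 0.293, and Cox6b2 1.41% ± 0.167 against 1.77% ± 0.333. Cox7a1 made up 0.687% ± 0.432 of its set against 0.728% ± 0.142, where Cox7a2 made up 79.3% ± 1.20 against 78.3% ± 0.571. Cox7a2l, counted in that set by its name, made up 20.0% ± 1.56 and 20.9% ± 0.555. In both genotypes Cox4i1, Cox6a1 and Cox6b1 held nearly all of their pairs, Cox7a2 and Cox7a2l together held nearly all of the Cox7a set, and the shares overlapped between genotypes for all 4 of the minor forms. Cox6a2 rested on 33, 18 and 29 counts in Prl2+/+ and 77, 12 and 34 in Prl2-/-, and its log2 fold change of 0.26 ± 0.642 carries no direction. Cox6b2 had the highest estimate of the 78, 0.33 ± 0.218, on a level of 3.25 to 5.54 CPM.

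**Figure D4:**
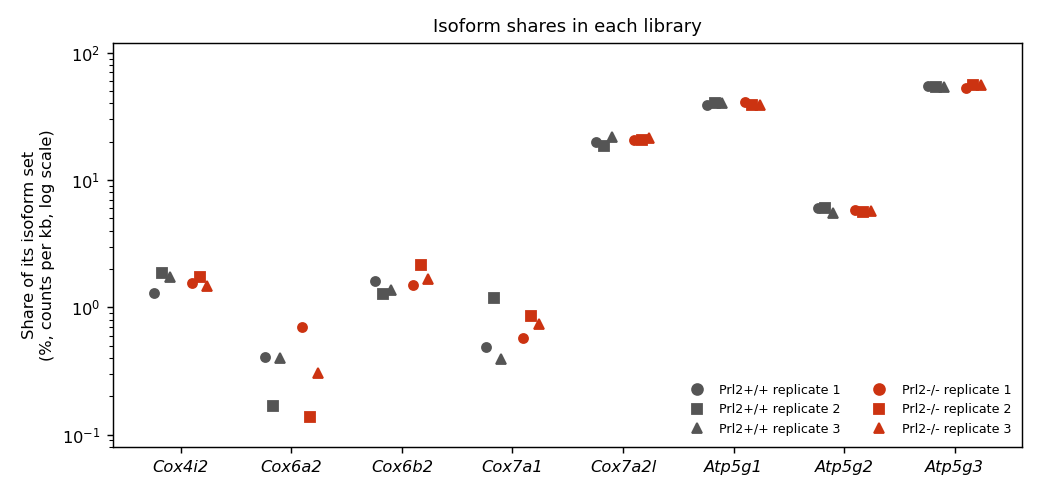
Share of each isoform in its set (%, from counts per kb, log scale) in each library, by genotype. The minor forms Cox4i2, Cox6a2, Cox6b2 and Cox7a1 lie near or below 2% in all libraries, and the shares of the Atp5g genes overlap between genotypes.

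For complex V, 13 of 17 estimates lay above 0, with a median of 0.056 and 3 genes without overlap between genotypes, Atp5g3, Atp5h and Atp5c1. These 3 were higher in Prl2-/-, as were 6.03% of all genes tested. The median was 0.014 without Prl2-/- replicate 1 and 0.036 without Prl2+/+ replicate 3. The summed level was 6700, 6984 and 6716 CPM in Prl2+/+ and 7326, 7054 and 6830 CPM in Prl2-/-, with Prl2-/- replicate 3 inside the Prl2+/+ range. The 5 genes of the catalytic head, Atp5a1, Atp5b, Atp5c1, Atp5d and Atp5e, had estimates from 0.024 to 0.11. Atp5b had 2545, 2627 and 2524 CPM in Prl2+/+ and 2646, 2630 and 2549 CPM in Prl2-/-. Prl2-/- replicate 3 lay inside the Prl2+/+ range, and the log2 fold change was 0.024 ± 0.048, with a 95% interval of -0.090 to 0.14. Atp5a1, the alpha subunit and the second in level per kb at 666 CPM, had 1493, 1625 and 1565 CPM against 1779, 1670 and 1583 CPM. Prl2-/- replicate 3 lay inside the Prl2+/+ range, and the log2 fold change was 0.10 ± 0.064. Atp5c1, the gamma subunit that forms the rotating shaft, had 414, 411 and 411 CPM against 462, 422 and 414 CPM, with a log2 fold change of 0.072 ± 0.058. Its Prl2-/- replicate 3 was level with the highest Prl2+/+ library to within 1 CPM. Atp5h and Atp5f1, both of the peripheral stalk, had log2 fold changes of 0.094 ± 0.055 and -0.028 ± 0.052.

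The membrane ring of ATP synthase is made of 1 protein, subunit c, which is encoded by 3 genes that differ in their cleaved import signal. Atp5g3 supplied 54.3% ± 0.773 of the set per kb in Prl2+/+ and 54.7% ± 1.38 in Prl2-/-, Atp5g1 39.8% ± 0.846 and 39.6% ± 1.29, and Atp5g2 5.86% ± 0.281 and 5.70% ± 0.115 (SD, n = 3 each). The order Atp5g3, Atp5g1, Atp5g2 held in both genotypes, and the shares of each gene overlapped. Atp5g3 (chr2:73908447-73911326, minus strand) had the smallest p of the complex, with 355, 370 and 352 CPM in Prl2+/+ and 409, 387 and 372 CPM in Prl2-/-. All 3 Prl2-/- libraries were higher, replicate 3 by little, and the log2 fold change was 0.12 ± 0.056 (edgeR adjusted p = 0.8985). Atp5g1 had 300, 334 and 314 CPM against 380, 324 and 314 CPM, high in Prl2-/- replicate 1 only. Atp5j, whose promoter is printed above, had a log2 fold change of -0.010 ± 0.060; its exons share 123 bases with Gabpa.

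Ptp4a2 lies on chromosome 4, and 2 of the 78 genes lie on the same chromosome. Uqcrh (chr4:116066965-116075070), the hinge protein of complex III, lies 13.7 Mb from it and had 97.7, 103 and 93.0 CPM in Prl2+/+ and 116, 101 and 106 CPM in Prl2-/-. The ranges overlapped, and the log2 fold change was 0.13 ± 0.075, the highest estimate of complex III. Ndufb6 (chr4:40270663-40279368), a membrane arm subunit of complex I, lies 89.5 Mb from it and had 105, 97.0 and 98.9 CPM against 106, 102 and 96.4 CPM. Its libraries of both genotypes were mixed in order, with a log2 fold change of 0.012 ± 0.065.

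The genes that serve the chain but lie outside the symbol families had medians above 0 as well, and 0 of them passed the threshold. Assembly factors of complex I had 11 of 13 estimates above 0 (median 0.086), those of complexes II and III 6 of 10 (0.024), those of complex IV 12 of 18 (0.031), and assembly factors and the inhibitor of complex V 3 of 4 (0.078). Surf1, which helps build the heme centre of complex IV, had 43.3, 43.6 and 42.1 CPM in Prl2+/+ and 52.3, 48.1 and 46.4 CPM in Prl2-/-. Cox10, which makes heme for the same enzyme, had 39.4, 45.7 and 42.1 CPM against 51.0, 48.8 and 46.3 CPM. Neither gene overlapped between genotypes, and the log2 fold changes were 0.19 ± 0.067 and 0.20 ± 0.077 (edgeR adjusted p = 0.8985 for each). Ndufaf7, a methyltransferase needed for complex I assembly, had a log2 fold change of 0.14 ± 0.061, also without overlap. Atpif1, the inhibitor of ATP synthase, had an estimate below 0, -0.13 ± 0.084.

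Ubiquinone, cytochrome c and other electron carriers had 13 of 15 estimates above 0 (median 0.072). The smallest p belonged to Coq4 and Coq3, which serve ubiquinone synthesis, with log2 fold changes of 0.17 ± 0.077 and 0.15 ± 0.071. The tricarboxylic acid cycle, which feeds the chain, had 11 of 17 above 0 (median 0.025), and import genes had 14 of 15 (median 0.066). Among regulators of mitochondrial biogenesis, 13 of 16 estimates were above 0 (median 0.040). Gabpa had the smallest p and the lowest estimate of that list, and it shares exon bases with Atp5j as given above. It had 80.01, 79.6 and 84.5 CPM in Prl2+/+ and 74.8, 70.3 and 69.2 CPM in Prl2-/-. Every Prl2-/- library was lower, and the log2 fold change was -0.19 ± 0.061 (edgeR adjusted p = 0.8985). Mitochondrial ribosomal protein genes had 69 of 77 estimates above 0 with a median of 0.075, and cytosolic ribosomal protein genes, which are no part of the mitochondrion, had 69 of 78 with a median of 0.075. Prl2-/- replicate 1 was the highest library for 63 of the 77 and 68 of the 78, again without a count over all genes to set beside them. The lean above 0 was therefore measured in ribosomal genes as well as in respiratory chain genes.

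Respiratory chain genes are short, with a median of 708 bases of exon against 2882 for all genes, and length classes were compared beside them. Among genes under 600 bases the median log2 fold change was 0.031 for 30 respiratory chain genes and 0.027 for all 232 genes of that class. From 600 to under 1200 bases it was 0.094 for 26 and 0.052 for all 1121, and at 1200 bases and over it was 0.061 for 22 and -0.0074 for all 11223. Under 600 bases, 20 of 30 respiratory chain genes and 136 of all 232 genes had an estimate above 0. From 600 to under 1200 bases, 22 of 26 and 744 of all 1121 did. At 1200 bases and over, 17 of 22 and 5382 of all 11223 did. The part of length in the lean was not tested.

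Some counts are uncertain. Of the 78 genes, 30 have at least 1 processed pseudogene copy in GENCODE M21 with 90% identity or more over 80% or more of the coding sequence. Atp5l has 13 such copies and Atp5h 5, and how reads that map to several places were counted is not given in the sources used here. Exons of 7 genes overlap a gene on the opposite strand (Atp5f1, Atp5j, Cox6a2, Ndufa13, Ndufa2, Ndufb11 and Ndufs1), and the library kit does not mark strand, so reads there could not be assigned to 1 gene.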

How the data were processed

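RNA was sequenced from 6 fetal liver samples (3 Prl2+/+, 3 Prl2-/-) with a SMART-Seq v4 and Nextera XT kit, per the labels' protocols. The values deposited by the authors are raw, whole-number counts for each gene; reads were aligned with STAR and counted with featureCounts, per the submitters' processing notes. For versions, genome build and the handling of multi-mapped reads: not given in the sources used here. A deposited score column, per the file header, is the exon length of each gene in bases. All 78 genes lie at their RefSeq position on GRCm38.p6. Mitochondrially encoded genes were not analysed here. All genes in the table reached at least 0.2311 CPM in 3 libraries.

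Counts were filtered with filterByExpr (12576 genes left), scaled by TMM (factors 0.9905 to 1.008) and tested with edgeR 4.0.16 (quasi-likelihood F test, R 4.3.3), Prl2-/- against Prl2+/+, with Benjamini-Hochberg adjustment over all genes and a threshold of 0.05. CPM uses TMM-scaled totals. SE is the fold change over the square root of F. Common biological coefficient of variation: 0.2645. The workflow was tested on simulated counts. Every pair of libraries differed beyond sampling noise (chi-square per gene at least 19.67).

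Alternatives were other scalings, no filter, DESeq2 1.42.0, limma-voom (limma 3.58.1), the likelihood ratio test, a replicate block and left-out libraries. Named are, per complex, the genes of smallest p and of highest and lowest level per kb; the 5 largest changes per direction without overlap; the 3 complex II genes of the rule; isoform sets; members on chromosome 4; up to 2 genes of smallest p per other list; and genes sharing exons with these. Fewer were named for some lists, and 1 gene is not reported here by name, though counts and sums include it; the members below 0 or just listed for their complex were chosen after their values were seen. The members and lists were chosen with earlier results of these data known. Pseudogene copies were found with blastn, and promoters came from RefSeq.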

Additional observations from a re-analysis of the deposited data

How the results depend on the processing

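No respiratory chain gene passed the threshold under any alternative run. Over all genes, 5 passed in the main test, against 36 in DESeq2, 21 in the likelihood ratio test and 1 without the 2 hepatoblast-rich libraries, and 3 to 4 when each library was left out. Replicate numbers did not pair the samples: deviations of same-numbered libraries correlated at -0.638, 0.209 and 0.174, and the replicate block left 1 gene past the threshold and a median of 0.0580 for the respiratory chain genes. When each library was left out, 52 to 65 of the 78 estimates were above 0, the median ran from 0.0251 to 0.0790, and that of complex I from 0.0295 to 0.0899. Of 435 recomputed values of 29 named genes, 27 in 10 genes changed sign. Some genes with estimates given above are not among the 29, for example Ndufa1, Ndufs1, Uqcrb, Atp5a1 and Atp5j, so their sign changes were not counted. The ranges with each library left out were -0.0049 to 0.1217 for Atp5g2, -0.0108 to 0.0778 for Cox4i1, -0.1262 to 0.1468 for Cox4i2, -0.0651 to 0.0336 for Cox6a1, -0.5359 to 0.6646 for Cox6a2, -0.0566 to 0.0424 for Cox6b1, -0.243 to 0.7499 for Cox7a1, -0.0508 to 0.0282 for Cox7a2 and -0.0217 to 0.0478 for Ndufb6. Cox4i2 was 0.0065 on library totals, 0.0120 with the replicate block and 0.0062 with upper quartile factors, and Cox7a2 was 0.0009 with upper quartile factors. Without the 2 hepatoblast-rich libraries, Cox6a1 was 0.0133, Cox7a1 -0.2825, Cox7a2 0.0057 and Sdha -0.0023. The cause of these sign changes was not tested. Depth limits Cox6a2 and Cox7a1 most, at under 80 counts in every library.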
